A study of Mus musculus with 20 samples.

Results

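The genes described here are the nuclear-encoded subunits of oxidative phosphorylation, with a few genes that share their names. They were taken by symbol from the deposited table: Nduf genes (complex I), Sdha to Sdhd (complex II), Uqcr genes and Cyc1 (complex III), Cox4 to Cox8 genes (complex IV) and Atp5 genes (complex V). The rule itself used names and no measured value, but it was chosen with earlier results of these data known. The names gave 93 of 14633 genes. Sorted by symbol, 81 were counted as subunits (38 of complex I, 4 of complex II, 9 of complex III, 15 of complex IV and 15 of complex V) and 12 were not. Those 12 are the complex I assembly factors Ndufaf1 to Ndufaf7, the genes Atp5s and Atp5sl, and the pseudogenes Atp5l-ps1, Atp5l-ps2 and Atp5l2-ps. A filter on low values (1 FPKM or more in at least 5 libraries) passed 92 of the 93, and Cox8b did not pass.

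Oxidative phosphorylation makes most of the ATP of resting cells. Complex I and complex II feed electrons from NADH and succinate into the inner mitochondrial membrane, and complexes III and IV pass them on to oxygen. This electron transfer pumps protons across the membrane, and complex V is the ATP synthase that uses the proton gradient. All complexes but complex II also hold subunits encoded in the mitochondrial genome, which are not analysed here. Several complex IV subunits exist as isoform pairs: Cox6a2, Cox7a1 and Cox8b are the heart and skeletal muscle forms of Cox6a1, Cox7a2 and Cox8a, and Cox7a1 and Cox8b are also known from brown fat.

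The samples were tumors of HEPA1-6, a mouse hepatoma cell line, injected under the skin of C57/BL6 mice and grown for 4 weeks. The 4 groups were control antibody (n = 4 libraries, replicates 1, 2, 3 and 5), control antibody with GSK343 (n = 5), anti-CXCL10 antibody (n = 5) and anti-CXCL10 antibody with GSK343 (n = 5). GSK343 inhibits EZH2, the enzyme of Polycomb repressive complex 2 that methylates histone H3 at lysine 27, and CXCL10 is a chemokine that draws CXCR3-bearing T cells and NK cells. The age and sex of the mice, the doses and which tumors came from separate animals are not stated in the sources used here, and p-values therefore reflect only how these libraries spread, which may be partly technical. HEPA1-6 is 1 cell line, and the tumors also hold host cells of mice that carry their own immune system.

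Values are FPKM (fragment counts scaled to transcript length and library total), the depth behind them is unknown, and they summed to between 533606 and 629679 per library. The labelled origin was checked with 8 hepatocyte and hepatoma genes, all present: albumin (Alb) averaged 3004 FPKM with control antibody and 2216 FPKM with GSK343 added. Tumors given control antibody with GSK343 stood apart in their cell markers. Their leukocyte marker score (the mean log2(FPKM + 1) of 8 genes) was 4.63 ± 0.29 (SD, n = 5), against 3.70 ± 0.27 (SD, n = 4) with control antibody alone. Their hepatocyte score was 6.74 ± 0.20 against 7.47 ± 0.38. In bulk tumors fewer cells of a type and less RNA per cell cannot be told apart. The libraries of both control antibody groups share one run of sample-sheet numbers, and those of both anti-CXCL10 groups repeat it, so an antibody difference and a difference between sequencing runs cannot be told apart.

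Messages of the subunits were abundant, and the 5 complexes differed in level. The mean over all 19 libraries had a median of 160 FPKM over the 15 complex V subunits and 170 FPKM over the 15 complex IV subunits. It was 108 FPKM over the 9 subunits of complex III, 77.5 over the 38 of complex I and 72.6 over the 4 of complex II. FPKM is scaled to transcript length, so these levels can be set side by side between genes. The most abundant members were Cox4i1, the common form of the regulatory subunit IV, at 778 FPKM, and Atp5b, the catalytic beta subunit of the ATP synthase, at 691 FPKM. Ndufa4, named for complex I and nowadays placed in complex IV, was counted with complex I by its name. It was the highest Nduf gene at 322 FPKM, and Ndufa11 was the lowest complex I subunit with 14.5 FPKM. Within complex II, Sdhd, a membrane anchor, averaged 118 FPKM and Sdhc, the other anchor, 49.0 FPKM. The 7 assembly factors, which help build complex I but are not part of it, had a median of 10.9 FPKM. At the bottom stood the muscle isoforms: Cox7a1 averaged 3.53, Cox6a2 1.82 and Cox8b 0.943 FPKM.

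Within the libraries the subunits rose and fell together, and the 4 groups overlapped in this movement. Leaving out the 3 muscle isoforms, each of the other 78 subunits was centred on its own mean, and the median deviation was taken per library on the log2 scale. It ran from -0.44 in anti-CXCL10 replicate 2 to 0.24 in replicate 1 of control antibody with GSK343. Anti-CXCL10 replicate 2 was the lowest of all libraries for 57 of the 93 members, and 75 of the 78 subunits were below their own mean there. Replicate 1 of control antibody with GSK343 was the highest library for 28 members and replicate 5 of that group for 20. Group ranges overlapped: -0.02 to 0.12 with control antibody, -0.03 to 0.24 with GSK343 added, -0.44 to 0.16 under anti-CXCL10 alone and -0.17 to 0.13 under both agents. The group medians were 0.02, 0.09, -0.05 and -0.02 in the same order, and a difference between groups was not tested.

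The complexes differed in this movement, and the difference was not tested. In anti-CXCL10 replicate 2 the median deviation was -0.45 for complex I, -0.36 for complex III, -0.47 for complex IV and -0.39 for complex V, and -0.20 for complex II, which has only 4 genes. In replicate 1 of control antibody with GSK343 it was 0.27, 0.07, 0.38 and 0.26 in complexes I, III, IV and V, and 0.00 in complex II. Over pairs of the 78 subunits the median correlation across libraries, after removing group means, was 0.43 (3003 pairs), against 0.01 for pairs of all tested genes. Those genes were not matched to the subunits in length or level. The movement also differed with exonic length. In replicate 1 of control antibody with GSK343 the median deviation was 0.33 over the 39 shorter subunits and 0.14 over the 39 longer. In anti-CXCL10 replicate 2 it was -0.45 and -0.39. The part of length in the movement was not tested. The deviation of the subunits followed the sum of FPKM of the library (Pearson's r 0.909, Spearman's rho 0.893, n = 19), the median deviation of 81 mitochondrial ribosomal protein genes (r 0.908, rho 0.875) and that of 87 cytosolic ribosomal protein genes (r 0.805, rho 0.837). These points share libraries and scaling, and the subunits are part of the FPKM sum, so the correlations are descriptions. The skeletal muscle score (r 0.204), the leukocyte score (r 0.148) and the hepatocyte score (r -0.287) followed it less closely; these differences were not tested. In the plot of library levels anti-CXCL10 replicate 2 stands alone at the lower left.

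**Figure D1:**
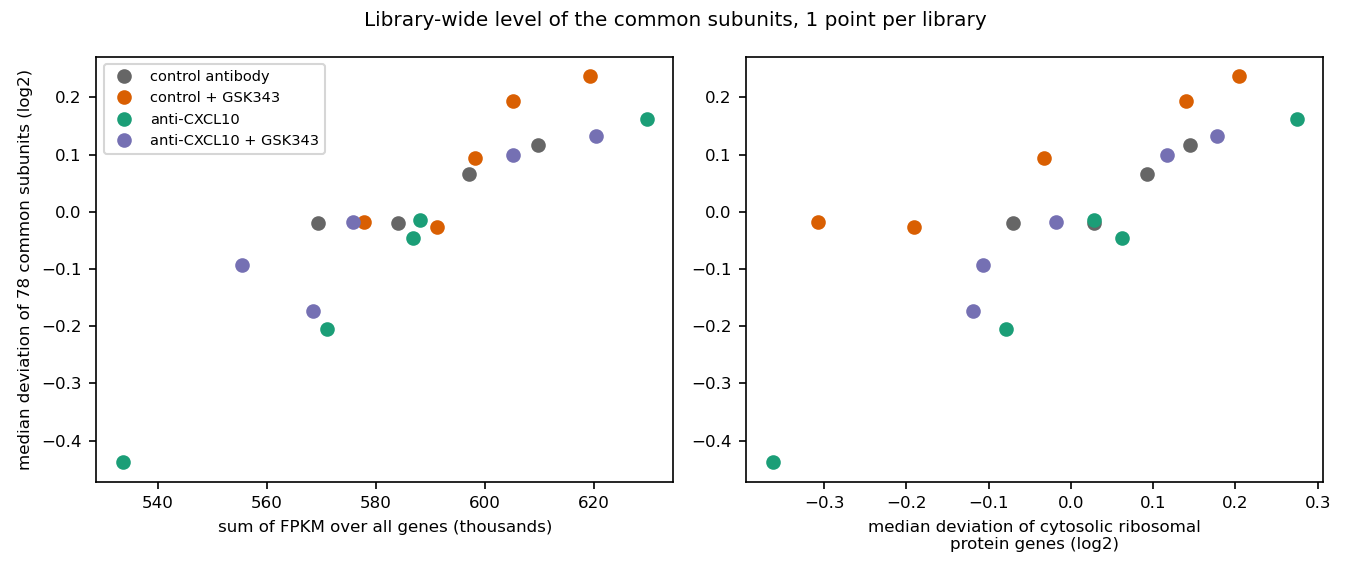
Each point is 1 of 19 libraries. The vertical axis is the median deviation of the 78 common subunits from their own means (log2), against the sum of FPKM (left) and the median deviation of cytosolic ribosomal protein genes (right). The 4 groups overlap, and anti-CXCL10 replicate 2 has the lowest subunit level, -0.44.

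GSK343 with control antibody raised 2 of the 92 tested members and lowered none. Both are unlike the bulk of the subunits: Ndufaf3 is an assembly factor, and Cox7a1 is a muscle isoform. No common subunit of any complex passed the test. Of all genes tested 5.47% passed (limma adjusted p under 0.05, adjusted by the Benjamini-Hochberg method over 14385 genes), 4.36% higher and 1.11% lower, against 2.17% of the members. After quantile normalization the 2 calls were 1 higher (Ndufaf3) and 1 lower (Atp5a1). At an unadjusted p under 0.05 limma called 11 of the 92 members, against 18.9% of all genes.

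Ndufaf3, which acts early in complex I assembly, read 4.06, 3.94, 4.3 and 5.59 FPKM in the 4 libraries of control antibody and 6.25, 13.2, 9.82, 8.70 and 12.1 FPKM with GSK343. The groups did not overlap, and every treated library was higher than every control. The change was 0.98 ± 0.24 (SE) on the log2(FPKM + 1) scale (limma adjusted p = 0.0235). This scale understates the change of low genes. Ndufaf3 overlaps Impdh2, a gene of guanine nucleotide synthesis, and the strand setting of the counting is unknown here, so reads of both genes cannot be told apart. Impdh2 ranged from 77.3 to 106 FPKM with control antibody and from 67.6 to 102 FPKM with GSK343, so its groups overlapped. The call on Ndufaf3 was lost without control antibody replicate 1 or 2, or without replicate 2, 3 or 5 of the GSK343 group (limma adjusted p from 0.0536 to 0.0808). With a skeletal muscle marker score (the mean log2 level of 15 muscle genes) as a covariate its change was 0.74 (limma adjusted p = 0.279), and without the 3 libraries highest in that score 0.90 (adjusted p = 0.239).

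Cox7a1 read 2.68, 2.09, 2.85 and 2.49 FPKM with control antibody and 4.76, 4.57, 7.25, 8.78 and 5.12 FPKM with GSK343. Here too the groups did not overlap. The change was 0.98 ± 0.27 (SE, limma adjusted p = 0.0392). It was lost when any of the 4 control libraries was left out, or replicate 2, 3, 4 or 5 of the GSK343 group, with limma adjusted p from 0.0527 to 0.105. The changes in these fits lay between 0.85 and 1.05, so the call is near the threshold while the size hardly moved.

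The common subunits changed little on average with GSK343. Over the 78 the median log2 change was 0.06, against -0.03 over all tested genes. It was 0.03 without replicate 1 of the GSK343 group, 0.03 with the replicate block and 0.12 without the 3 libraries highest in muscle markers. The 95% interval lay within 2-fold for 74 of them. The largest fitted change in each complex was sought with the tested muscle isoforms included. It was Ndufa3 at 0.45 in complex I, Sdhb at 0.33 in complex II and Cyc1 at -0.12 in complex III. Complex IV had Cox6a2, a muscle isoform, at 1.50, and complex V had Atp5g1 at -0.67. None of these passed. Without replicate 1 of the GSK343 group the Atp5g1 change was 0.01. Sdhb, the iron-sulfur subunit of succinate dehydrogenase, read 52.5, 52.2, 57.4 and 49.0 FPKM with control antibody and 55.2, 71.6, 64.6, 70.9 and 72.9 FPKM with GSK343 (limma adjusted p = 0.0888). Only replicate 1 of the GSK343 group lay within the control range; without it Sdhb passed (limma adjusted p = 0.0218), as it did without anti-CXCL10 replicate 2 (adjusted p = 0.0374). Atp5a1, the alpha subunit of the ATP synthase, went the other way: 473, 519, 570 and 517 FPKM with control antibody against 475, 408, 353, 417 and 397 FPKM with GSK343. The change was -0.35 ± 0.13 (SE, limma adjusted p = 0.154). Its partner Atp5b and the other 13 members of complex V did not pass either.

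**Figure D2:**
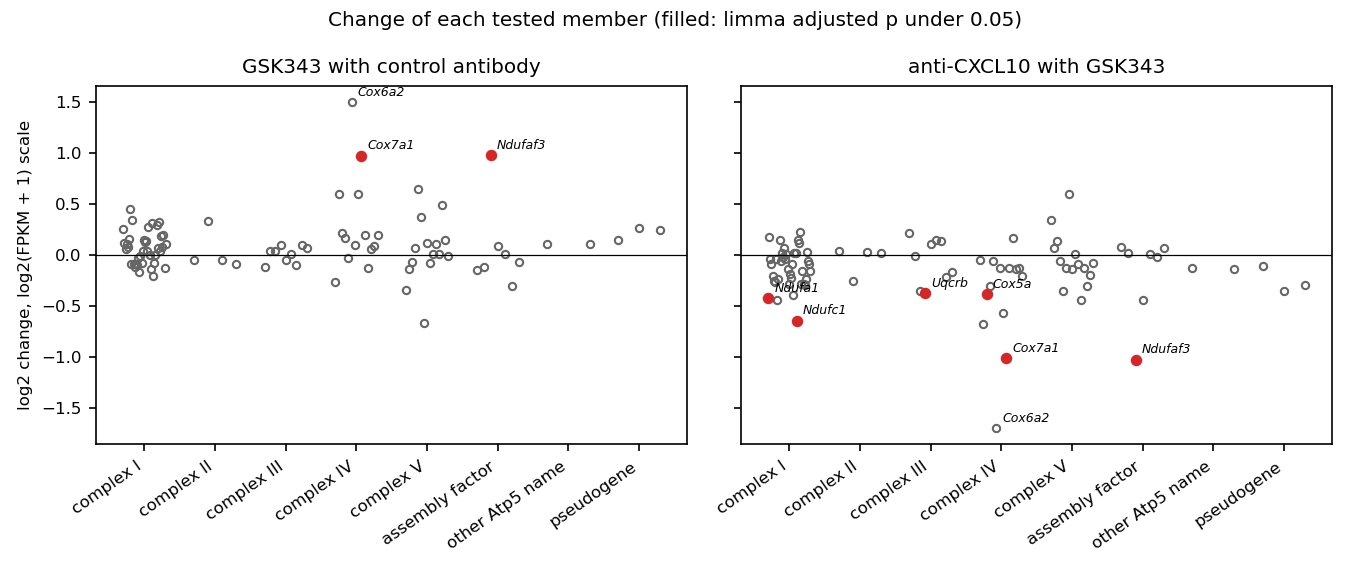
Each circle is 1 of 92 tested members, placed by class, and its height is the log2 change on the log2(FPKM + 1) scale for GSK343 with control antibody (left) and for anti-CXCL10 with GSK343 (right). Filled circles passed limma's test: 2 on the left, both higher, and 6 on the right, all lower.

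The isoform pairs of complex IV showed where the muscle forms sat. Cox6a2 was listed at 0 in 5 libraries and reached 15.2 FPKM in replicate 4 of control antibody with GSK343, while Cox6a1, its common form, read 236 to 443 FPKM across all libraries. With control antibody Cox6a2 read 0.715, 0, 0.347 and 0.652 FPKM, and with GSK343 0, 1.17, 3.83, 15.2 and 4.68 FPKM. The treated libraries spanned the whole range, from the only treated library listed at 0 to the highest value of the series, and the change of 1.50 ± 0.58 (SE) did not pass (limma adjusted p = 0.161). Without replicate 1, the treated library listed at 0, it was 1.99 with an adjusted p of 0.0170. Cox8b was listed at 0 in 9 libraries, among them all 4 of control antibody, and read 0.0677, 0.139, 3.22, 7.86 and 2.22 FPKM with GSK343. It was not tested.

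As a share of the FPKM of its pair, Cox7a1 made up 2.32 to 2.46% with control antibody and 3.48 to 7.51% with GSK343. Under anti-CXCL10 the share was 1.63 to 3.59%, and 1.10 to 3.23% once GSK343 was added. Cox6a2 never exceeded 4.88% of its pair and Cox8b never 2.76%. So the common forms made nearly all of the message in every library. Among other pairs, Cox4i2, the oxygen-sensitive form of subunit IV known from lung and vascular cells, was 0.803 to 1.19% of its pair with control antibody and 1.25 to 3.75% with GSK343. Its level was 7.85 to 10.04 FPKM and 10.5 to 22.0 FPKM in these groups, which did not overlap, but the change of 0.60 ± 0.26 (SE) did not pass (limma adjusted p = 0.218). The pericyte and smooth muscle score was 3.24 ± 0.21 (SD, n = 4) and 3.49 ± 0.28 (SD, n = 5) in the same groups, with 8 of 9 listed genes in the table; its part in the result was not tested. Ndufa4l2, a hypoxia-responsive relative of Ndufa4, read 13.0 to 19.0 FPKM with control antibody and 16.7 to 26.0 FPKM with GSK343, and the change of 0.34 ± 0.18 (SE) did not pass (adjusted p = 0.319, limma).

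**Figure D3:**
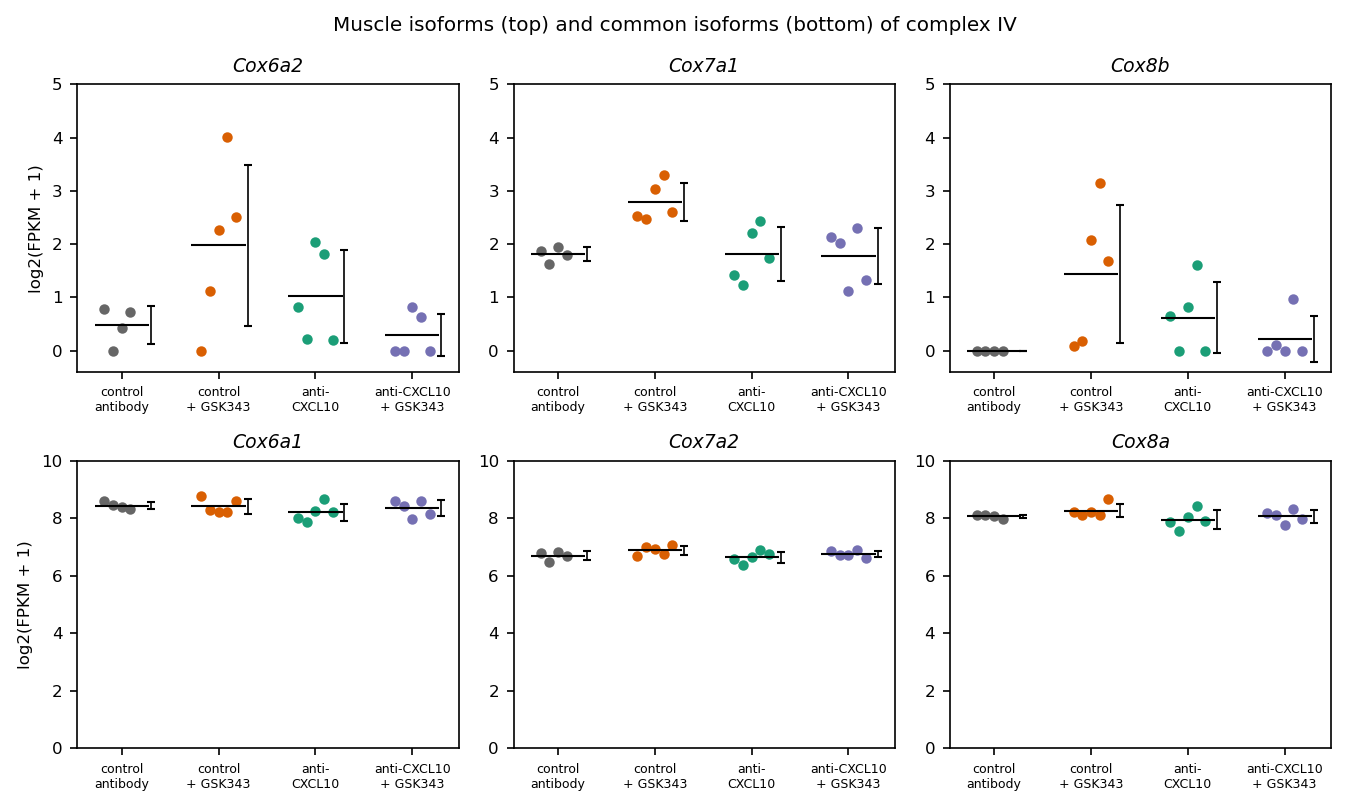
Each point is 1 library, shown as log2(FPKM + 1), with the group mean (line) and SD (bar), for the muscle isoforms (top) and their common partners (bottom; other vertical scale). Cox6a2 and Cox8b spread widely within control antibody with GSK343, Cox7a1 is higher in all 5 of its libraries than in the 4 of control antibody, and the partners stay near 6 to 9.

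The muscle isoforms moved with markers of skeletal muscle. The marker score (mean log2(FPKM + 1) of 15 of 17 listed genes, none a member) ranged from 1.10 to 2.31 with control antibody and from 1.68 to 6.64 with GSK343. Under anti-CXCL10 the range was 0.44 to 3.75, and 0.82 to 2.51 once GSK343 was added. The highest scores were 6.64, 4.63 and 4.46, in replicates 4, 3 and 5 of control antibody with GSK343. None of the 15 genes was listed at 0 in either control antibody group. Acta1, skeletal muscle actin, reached 673 FPKM with GSK343, against at most 22.7 FPKM with control antibody. Of the 14 muscle genes tested none passed for GSK343 with control antibody by limma, although all 14 had an unadjusted p under 0.05 and their median change was 2.43.

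Across the 19 libraries Cox6a2 followed the score with Pearson's r 0.955 and Spearman's rho 0.832. For Cox8b r was 0.940 and rho 0.820, and for Cox7a1 r was 0.729 and rho 0.596. The permutation p-values of r, adjusted over the 3 genes, were 1.5e-05 for Cox6a2 and Cox8b and 0.00035 for Cox7a1 (unadjusted, the first 2 were 1e-05, the smallest that 100000 permutations can give); those of rho were 6e-05, 0.000105 and 0.00852. Without the 2 libraries farthest from the median score r was 0.903, 0.858 and 0.486 for Cox6a2, Cox8b and Cox7a1, and the permutation p for Cox7a1 was 0.0483 for r and 0.0823 for rho, so that relation rests largely on the 2 left out. Within the 9 libraries of the control antibody groups r was 0.969, 0.982 and 0.860 (adjusted p = 0.00102, 0.000992 and 0.00155 by exact permutation). Within the 10 anti-CXCL10 libraries it was 0.908, 0.847 and 0.423 (adjusted permutation p = 0.00096, 0.00301 and 0.218). For Cox7a1 the relation therefore did not pass within the anti-CXCL10 libraries. All permutations moved libraries across treatment groups, so the p-values also take up differences between groups.

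**Figure D4:**
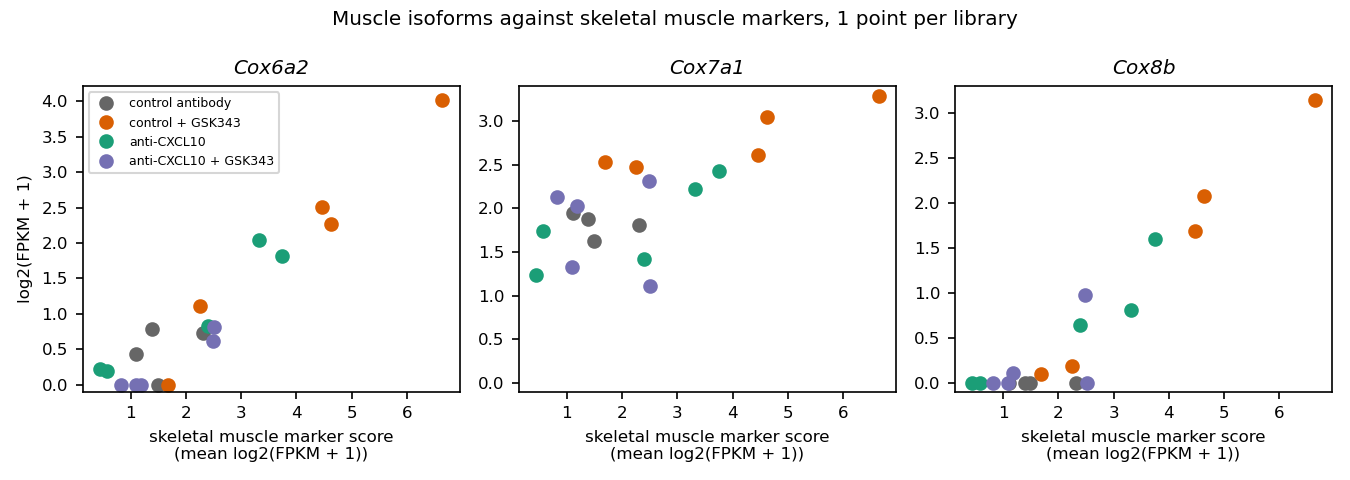
Each point is 1 of 19 libraries, with the skeletal muscle marker score on the horizontal axis and the isoform's log2(FPKM + 1) on the vertical axis. Cox6a2 and Cox8b rise with the score (r 0.955 and 0.940), whereas Cox7a1 (r 0.729) lies above 2.4 in all 5 libraries of control antibody with GSK343, also in the 2 with scores of 1.68 and 2.25.

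With the score as a covariate the fitted GSK343 change of Cox6a2 was -0.01, and that of Cox7a1 was 0.59 with a limma adjusted p of 0.440. Replicates 1 and 2 of control antibody with GSK343 had muscle scores of 1.68 and 2.25, within the control range of 1.10 to 2.31, and read 4.76 and 4.57 FPKM of Cox7a1, above all 4 controls. Leaving out the 3 libraries with the highest scores, which leaves those 2, gave a change of 0.69 (limma adjusted p = 0.389). Other sources of Cox7a1 were not tested: of 6 brown fat markers only Cpt1b, also a muscle gene, is in the table. The genes most like the isoforms across 19 libraries, by Pearson's r over all tested non-members, were Casq1 (0.973), Eef1a2 (0.972) and Mybpc2 (0.966) for Cox6a2. For Cox8b they were Myoz1 (0.969), Casq1 (0.967) and Eef1a2 (0.963). For Cox7a1 they were Rexo2, Hexa and Igfbp6 (0.897, 0.897 and 0.886). Of the 15 markers, the list for Cox6a2 holds Casq1 (calsequestrin) and Mybpc2, that for Cox8b holds Casq1, and that for Cox7a1 holds none. Only the 3 closest genes were listed for each isoform, and the source of the Cox7a1 message was not tested.

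All 3 muscle isoforms lie on chromosome 7 (GRCm38): Cox7a1 at chr7:30184171-30186028, Cox6a2 at chr7:128205436-128206366 and Cox8b at chr7:140898943-140900446. The 250 bases before the start of Cox7a1 and Cox8b are printed with those of Cox6a1 and Cox8a, common forms, to set muscle forms of low level beside abundant common forms. The sequences are from RefSeq (GRCm38.p6), 5′ to 3′ on the gene's strand, and capitals mark matches to motifs of nuclear respiratory factor NRF1 (GCGCA followed by its reverse complement), ETS factors such as GABP (CCGGAAG), YY1 (AAGATGGC), the E-box bound by myogenic factors (CAGCTG), MEF2 (CTA and TAG with any 4 bases between) and the TATA box (TATAAA), each searched on both strands.
Cox7a1 (chr7:30183921-30184170, plus strand): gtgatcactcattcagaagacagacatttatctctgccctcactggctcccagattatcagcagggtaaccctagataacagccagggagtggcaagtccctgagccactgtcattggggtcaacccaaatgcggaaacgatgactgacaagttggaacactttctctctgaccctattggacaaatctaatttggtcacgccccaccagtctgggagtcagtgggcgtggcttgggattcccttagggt
Cox8b (chr7:140900447-140900696, minus strand): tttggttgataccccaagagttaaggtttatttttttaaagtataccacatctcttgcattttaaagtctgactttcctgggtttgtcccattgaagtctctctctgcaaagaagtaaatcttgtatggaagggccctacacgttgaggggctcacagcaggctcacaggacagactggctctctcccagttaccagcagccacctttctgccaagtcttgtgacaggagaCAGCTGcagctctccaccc
Cox6a1 (chr5:115348959-115349208, minus strand): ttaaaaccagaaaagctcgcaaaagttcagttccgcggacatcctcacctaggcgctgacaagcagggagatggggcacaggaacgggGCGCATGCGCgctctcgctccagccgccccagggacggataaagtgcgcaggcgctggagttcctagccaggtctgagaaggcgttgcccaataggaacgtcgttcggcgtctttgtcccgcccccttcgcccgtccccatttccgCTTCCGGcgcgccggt
Cox8a (chr19:7217617-7217866, minus strand): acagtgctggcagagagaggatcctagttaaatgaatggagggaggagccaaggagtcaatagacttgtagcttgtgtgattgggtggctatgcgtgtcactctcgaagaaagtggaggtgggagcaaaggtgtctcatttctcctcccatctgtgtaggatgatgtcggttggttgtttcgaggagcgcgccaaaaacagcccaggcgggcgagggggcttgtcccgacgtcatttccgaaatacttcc

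In the 250 bases printed, Cox8b held an E-box starting 19 bases before the start, and Cox6a1 held an NRF1 motif at 162 and an ETS motif at 16 bases before the start. Cox7a1 and Cox8a held none of the 6 there. The start used is that of RefSeq. The deposited locus of Cox6a1 runs to 115348981, beyond that start, so its ETS match lies inside the deposited gene. The 300-base windows that RefSeq's table gives (250 bases before to 50 after the start) hold more: 2 ETS matches in Cox8a, and 2 E-box matches and 1 TATAAA in Cox8b, but still none in Cox7a1. Cox6a1 is not the partner of Cox7a1. That partner, Cox7a2, also held none of the 6 in its window. The windows also differed in base composition. Cox8b had 2 CG dinucleotides and Cox7a1 7, against 32 in Cox6a1, 20 in Cox7a2 and 19 in Cox8a. The median was 19 over 62 common subunits with a window and 21 over 9137 genes. Only 1 of the 62 had fewer than Cox7a1. Of the 72 members with a window, 8.33% held the NRF1 motif (2.18% of all 9137) and 13.9% the YY1 motif (4.83%). The ETS motif was in 22.2% of members and 19.4% of all, and the E-box in 8.33% and 14.5%. The MEF2 motif was in 2.78% and 2.999%, and TATAAA in 8.33% and 7.56%. A match is a description of the letters, and no match says only that these letters are not in the window.

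Among tumors treated with GSK343, those given anti-CXCL10 were lower than those given control antibody in 6 of the 92 tested members, and none was higher. These were the complex I subunits Ndufc1 and Ndufa1, Uqcrb of complex III, Cox5a and Cox7a1 of complex IV, and the assembly factor Ndufaf3. Of all genes tested 10.1% passed limma's test in this comparison, 6.64% lower and 3.48% higher, against 6.52% of members lower, so the members' share lower is near that of all genes. After quantile normalization 6 were lower and 2 higher. At an unadjusted p under 0.05 limma called 16 members, against 25.7% of all genes. The comparison shares its GSK343 libraries with the one above, so the values are given side by side and support nothing in each other.

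Ndufc1, a small accessory subunit of the membrane arm of complex I, read 83.6, 54.4, 77.0, 57.8 and 52.5 FPKM with control antibody and GSK343, and 44.0, 42.1, 38.4, 43.9 and 35.1 FPKM with anti-CXCL10 and GSK343. Every anti-CXCL10 library was lower, and the change was -0.64 ± 0.12 (SE, limma adjusted p = 0.00411). The call held in all 19 fits that left out 1 library. Without GSK343 the anti-CXCL10 libraries were also below the control libraries, 35.3 to 46.3 against 49.9 to 52.4 FPKM with no overlap, but that change of -0.32 ± 0.13 (SE) did not pass (limma adjusted p = 0.684).

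Cox5a, a nuclear-encoded subunit on the matrix side of complex IV, read 307, 267, 236, 281 and 287 FPKM with control antibody and GSK343 against 232, 217, 188, 216 and 201 FPKM with anti-CXCL10. The groups did not overlap, and the change was -0.38 ± 0.10 (SE, limma adjusted p = 0.0246). Ndufa1, an X-linked accessory subunit, ranged from 71.6 to 96.4 FPKM and from 53.3 to 67.0 FPKM, again apart, with a change of -0.42 ± 0.12 (SE, adjusted p = 0.0358). Uqcrb, a ubiquinone-binding subunit of complex III, ranged from 151.7 to 200.9 FPKM and from 115.7 to 151.6 FPKM, so its groups met without overlap (change -0.37 ± 0.11, SE, limma adjusted p = 0.0389). Uqcrb overlaps the predicted gene Gm10767, from which its reads cannot be told apart. Calls on these 3 were kept in 16, 12 and 12 of the 19 fits that left out 1 library, in the order Cox5a, Ndufa1, Uqcrb; the lost ones had adjusted p up to 0.0613, 0.0857 and 0.103. The libraries behind the lost calls were replicate 5 of control antibody with GSK343 and replicates 3 and 5 of anti-CXCL10 with GSK343 for Cox5a. For Ndufa1 they were replicates 1, 3 and 5 of the former group and 2 to 5 of the latter, and for Uqcrb replicates 1, 2 and 4 of the former and 2 to 5 of the latter. Without GSK343 the change of Cox5a was -0.33 ± 0.11 and that of Uqcrb -0.30 ± 0.12 (SE), neither past the test (limma adjusted p = 0.684 for both).

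**Figure D5:**
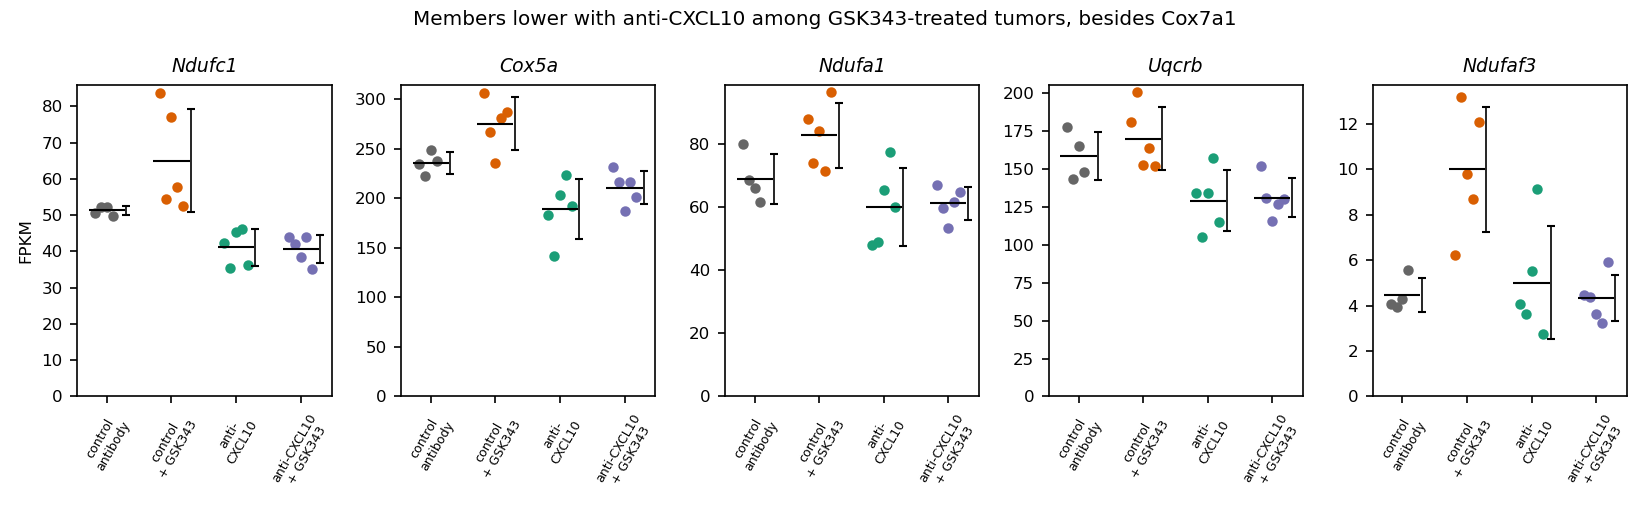
Each point is 1 library (FPKM), with the group mean (line) and SD (bar). In Ndufc1, Cox5a, Ndufa1, Uqcrb and Ndufaf3 all 5 libraries of anti-CXCL10 with GSK343 lie below all 5 of control antibody with GSK343.

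Ndufaf3 and Cox7a1, both higher with GSK343 under control antibody, were lower here. Ndufaf3 read 4.46, 4.40, 3.65, 3.25 and 5.93 FPKM with anti-CXCL10 and GSK343, below all 5 libraries of control antibody with GSK343 (change -1.03 ± 0.23, SE, limma adjusted p = 0.00951). Cox7a1 read 3.37, 3.07, 1.16, 3.95 and 1.50 FPKM, also below all 5 (change -1.01 ± 0.25, SE, adjusted p = 0.0180). The call on Cox7a1 was lost without replicate 5 of anti-CXCL10 with GSK343 (adjusted p = 0.0537). Cox6a2 read 0, 0, 0.760, 0.539 and 0 FPKM, and its change of -1.69 ± 0.55 (SE) did not pass (limma adjusted p = 0.0587). Without replicate 1 of control antibody with GSK343, where Cox6a2 is listed at 0, it was -2.19 (adjusted p = 0.00620, limma). Atp5a1 had the reverse sign, with 611, 521, 396, 558 and 533 FPKM and a change of 0.35 ± 0.13 (SE) that did not pass (adjusted p = 0.0891).

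Marker scores of other cells moved along with these groups. The skeletal muscle score was 3.93 ± 2.0 (SD, n = 5) with control antibody and GSK343 and 1.62 ± 0.81 (SD, n = 5) with anti-CXCL10 and GSK343. The leukocyte score was 4.63 ± 0.29 and 3.83 ± 0.22, with ranges of 4.25 to 5.06 and 3.46 to 3.99, and 5 of its 8 genes passed lower. The hepatocyte score was 6.74 ± 0.20 and 7.41 ± 0.35, and 3 of 8 genes passed higher. Without the 3 libraries highest in muscle markers 2 of the 92 members passed, and with the muscle score as a covariate none did. With the covariate the change of Ndufc1 was -0.62 (limma adjusted p = 0.0517). Changes of Cox5a, Ndufa1 and Uqcrb were -0.34, -0.39 and -0.38. Each of these lay close to its value without the covariate. Ndufaf3 and Cox7a1 had smaller changes than without it, -0.79 and -0.64 (limma adjusted p = 0.127 and 0.224). Calls over all genes fell too. The part of the leukocyte and hepatocyte scores in these changes was not tested.

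In the other comparisons no member passed. Under anti-CXCL10, GSK343 called none of the 92 members (0% of all genes by limma), and at an unadjusted p under 0.05 limma called 1 member (2.91% of all genes), Cyc1, the haem-bearing cytochrome c1 of complex III. Cyc1 read 87.9, 75.6, 89.5, 97.3 and 117 FPKM with anti-CXCL10 and 125, 104, 95.3, 109 and 101 FPKM with GSK343 added, groups that overlap (change 0.20 ± 0.09, SE). Of the 92 changes 73 were above 0, with a median of 0.09, against 7653 of 14385 and 0.01 over all tested genes. Over the 78 common subunits the median was 0.10, but 0.01 without anti-CXCL10 replicate 2 and 0.16 without replicate 4. For the members 90 of the 95% intervals lay within 2-fold. Cox7a1 read 1.67, 1.36, 3.64, 4.38 and 2.34 FPKM with anti-CXCL10, a range that overlaps that with GSK343 added, and its change was -0.03 ± 0.25 (SE).

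Anti-CXCL10 without GSK343 called no member by limma (0.0139% of all genes), and 12 members had an unadjusted p under 0.05, against 6.81% of all genes. Of the 92 changes 73 were below 0, with a median of -0.13, against 7634 of 14385 and -0.01 over all tested genes. Single libraries moved that median: over the 78 common subunits it was -0.13, but -0.06 without anti-CXCL10 replicate 2 and -0.20 without replicate 4. With quantile normalization it was -0.09. Complex I subunits outside the core, sorted by name and so with Ndufa4 and Ndufa4l2, were lower in 28 of 31 fitted changes. Those of the 7 core subunits were lower in 5, but none passed. Subunits moved together within libraries, so these changes are not separate observations. A difference between core and other subunits was not tested.

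The interaction, which asks whether GSK343 acted differently under the antibodies, called no member by limma (0.0626% of all genes, 9 genes, all lower), and 6 members had an unadjusted p under 0.05, against 12.9% of all genes. The largest differences were -2.23 ± 0.80 (SE) for Cox6a2, -1.08 ± 0.33 for Ndufaf3 and -1.005 ± 0.37 for Cox7a1, with limma adjusted p of 0.228, 0.177 and 0.237. Without replicate 1 of control antibody with GSK343, Cox6a2 and Ndufaf3 passed (adjusted p = 0.0364 and 0.0431). For these genes the effect of GSK343 is therefore not shown to differ between the antibodies when all libraries are used. Over 80 of the 92 members the 95% interval of the interaction lay within 2-fold.

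Lists of genes around the respiratory chain were read beside the 5.47% of all genes called with GSK343 under control antibody. With GSK343 under control antibody 1 of 37 other assembly factors (2.70%) rose, Coa3 of complex IV assembly at 0.47 ± 0.12 (SE, limma adjusted p = 0.0313). Of 18 citric acid cycle genes 1 (5.56%) fell, the mitochondrial isocitrate dehydrogenase Idh2 at -0.34 ± 0.09 (adjusted p = 0.0326, limma). None of 12 regulators of mitochondrial genes passed by limma, with 1 at an unadjusted p under 0.05. Of 81 mitochondrial ribosomal protein genes 1 rose (Mrpl1) and 1 fell (Mrps27). None of 87 cytosolic ribosomal protein genes passed by limma, with 5 at an unadjusted p under 0.05, and of 20 glycolysis and hypoxia genes 1 rose (Pfkp).

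Of 18 mitochondrial carriers and electron donors 1 rose with GSK343, Slc25a4, the ADP/ATP carrier of heart and skeletal muscle, which exchanges the product of complex V across the inner membrane. It read 14.1, 19.7, 15.2 and 14.7 FPKM with control antibody and 20.4, 30.1, 42.9, 69.8 and 35.5 FPKM with GSK343, without overlap (change 1.17 ± 0.26, SE, limma adjusted p = 0.0139). Its highest library is replicate 4, which also has the highest muscle score and the highest Cox6a2, Cox7a1 and Cox8b. With anti-CXCL10 and GSK343 it read 15.4, 14.6, 17.5, 16.9 and 13.2 FPKM (change -1.19 ± 0.24, SE, adjusted p = 0.00651). In that comparison Coa3 fell (-0.49 ± 0.12, SE), as did Cycs, the cytochrome c that carries electrons from complex III to complex IV (-0.36 ± 0.11, SE, limma adjusted p = 0.0392). Coq5 of ubiquinone synthesis rose by 0.20, and so did 3 of 18 citric acid cycle genes, Idh2, Suclg2 and Fh1, by 0.37, 0.34 and 0.28. These 3 of 18 are 16.7%, against 3.48% of all genes higher. Of the 18 carriers and donors 1 was higher and 2 were lower, and Coa3 was 1 of 37 other assembly factors (2.70%). In either direction 10.1% of all genes passed. Differences between these shares were not tested.

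Some members varied in steps rather than with the groups. Atp5g1, which encodes the c subunit of the ATP synthase rotor along with Atp5g2 and Atp5g3, read 8.90 FPKM in replicate 1 of control antibody with GSK343 and at least 59.2 FPKM in the other 18 libraries. Its fitted GSK343 change of -0.67 was 0.01 without that library. Ndufaf4 was at most 6.20 FPKM in 15 libraries and at least 10.5 FPKM in 4, and Cox6c ranged from 73.0 to 343 FPKM. Sdhd and Sdha, by contrast, had a highest value only 1.20 and 1.21 times the lowest over the 19 libraries. In all 23 of the 93 members overlap another listed gene.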

How the data were processed

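Tumor RNA was poly-A selected and sequenced, per the series' design text, which speaks of 3 replicates where the labels number 5. Of 20 labelled samples 19 were analysed; control antibody replicate 4 is not analysed here. The submitters' processing notes name StringTie 1.3.3b, HTSeq 0.6.0, the aligners HISAT2 2.1.0 and TopHat2 2.1.0, and Trimmomatic 0.33, and the mouse build as mm10 or GRCm38; strand and order of steps are not stated there. The deposited values are per-gene FPKM, a unit inferred from the values: column sums weighted by exonic length had a coefficient of variation of 0.790%, plain sums 4.06%. Counts and depth are unknown, so no counting interval is given.

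Rows sharing an Ensembl ID were summed, giving 14633 genes; 248 were removed by the filter of 1 FPKM in at least 5 libraries, leaving 14385. limma 3.58.1 (R 4.3.3, statmod 1.5.0, trend and robust) fitted log2(FPKM + 1) to 4 group means with 5 contrasts. P-values were adjusted by Benjamini-Hochberg over all tested genes, with 0.05 as threshold and 95% intervals. The fit was tested on simulated data. Gene positions and overlaps are from the loci listed with the deposited values, and exonic lengths are from the GENCODE annotation of GRCm38. Named members were those called in a comparison (up to 5 a direction by p), isoform pairs, core subunits, the highest and lowest of each complex and the largest change of each complex under GSK343 with control antibody. Uqcrb, Ndufaf4, Cox6c and Slc25a4 were named after their values were seen. Results on some items are not reported here. Members and gene lists were chosen with earlier results of these data known. Alternatives were other pseudocounts, filters, scalings, a replicate block, the compared groups alone, a muscle score covariate, and leaving out libraries.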

Additional observations from a re-analysis of the deposited data

Results flagged for a closer look

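In 4 cases 1 library stood apart from the others of its group (Dixon's gap test at 95%); among 131 group sets of named members that is 3.05%, and chance alone flags about 1 in 20. Of all 371 group sets of members 14 stood out (3.77%). Atp5g1 read 8.90 FPKM in replicate 1 of control antibody with GSK343, against 93.2 to 123 in the other 4 libraries. Cox8a read 405.2 FPKM in replicate 5 of that group against 276 to 302, and Ndufa3 read 75.5 FPKM in its replicate 4 against 99.3 to 107. Cox8b read 0.966 FPKM in replicate 4 of anti-CXCL10 with GSK343, where the other 4 libraries were at most 0.0765.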

How the results depend on the processing

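The count of members past the threshold for GSK343 with control antibody was 2. It was 1 with a pseudocount of 0.1, 1 with a filter of 5 FPKM and 1 with the replicate block, 0 with the muscle score as a covariate and 0 without the 3 libraries highest in muscle markers, and 0 to 4 when 1 library was left out (4 without replicate 1 of control antibody with GSK343). For anti-CXCL10 with GSK343 the count of 6 was 0 with the covariate, 2 without the 3 libraries and 2 to 7 when 1 library was left out (2 without replicate 5 of anti-CXCL10 with GSK343). The interaction gave 0, and 0 to 2 when 1 library was left out. GSK343 with anti-CXCL10 and anti-CXCL10 without GSK343 gave 0 in every fit run. The interaction needs all 4 groups, so it was not run on compared groups alone. Over all genes the calls also fell with the covariate, from 787 to 6 and from 1456 to 141, and without the 3 libraries to 15 and 497. With the compared groups alone 233 genes passed for GSK343 with control antibody.

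Direction changed for Cox6a2 under GSK343 with control antibody (-0.0122 with the covariate), for Atp5g1 (-0.901 to 0.00960 when 1 library was left out) and for Cox7a1 where its change was near 0. Those were GSK343 with anti-CXCL10 (0.0477 with the covariate, -0.17 to 0.14 when 1 library was left out) and anti-CXCL10 without GSK343 (0.0137 with a pseudocount of 5, 0.00576 with median-ratio scaling, -0.16 to 0.14 when 1 library was left out). The correlations with the muscle score kept their side of the threshold over the settings run on all libraries. Quantile normalization ended the call on Cox7a1 under GSK343 with control antibody (limma adjusted p = 0.0559) and made Atp5a1 pass as lower (adjusted p = 0.0260).

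Whether equal replicate numbers mark paired samples is not stated in the sources used here. Deviations of libraries with equal numbers correlated from -0.18 to 0.32. Libraries with unlike numbers were not set beside them, so this range cannot decide the question. With the replicate block the limma adjusted p of Ndufaf3 under GSK343 with control antibody was 0.0532, that of Ndufa1 under anti-CXCL10 with GSK343 was 0.0530, and that of Cox6a2 there was 0.0249; no other call on a named member changed. Low members such as Cox8b are limited by the unknown depth, and 4 or 5 libraries a group limit every test.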
